A study of Homo sapiens with 4 samples.

Results

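The let-7 guide strands and miR-98-5p are 9 mature microRNAs (miRNAs) that share one seed, the stretch of bases 2 to 8 that pairs with target mRNAs. They were taken by name from a table of 826 mature miRNAs, as every row named let-7 plus a letter and ending in 5p, together with miR-98-5p. All 9 passed the low-count filter and were tested, among 401 miRNAs tested in all. Small RNA was sequenced from H661, a human cell line derived from a large cell carcinoma of the lung. One group of 2 libraries came from cells given 2.5 µM entinostat for 8 h, and the other group of 2 from cells given the solvent dimethyl sulfoxide (DMSO). Entinostat is a benzamide drug that blocks class I histone deacetylases. The labels do not say whether the replicates are separate cultures. The p-values therefore reflect differences between libraries that may be technical. All results hold for 1 cell line, 1 dose and 1 time.

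The let-7 family is known as a brake on growth and on the undifferentiated state. A let-7 guide strand loaded into an Argonaute protein pairs through its seed with mRNAs such as those of RAS genes, HMGA2, MYC and LIN28B, and lowers their output. In lung tumours the family is well known for low levels. Its processing is held back by the RNA-binding proteins LIN28A and LIN28B, which bind a GGAG element in the precursor hairpin.

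The mature sequences below, in the order of their abundance here, show how alike the members are. They come from RefSeq (GRCh38.p14), which held all 9, are written 5′ to 3′, and have the seed in capitals. The prefix hsa of the full names, for human, is left out further on.
hsa-let-7c-5p: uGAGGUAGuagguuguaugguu
hsa-let-7a-5p: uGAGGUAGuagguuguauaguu
hsa-let-7e-5p: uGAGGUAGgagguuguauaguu
hsa-let-7g-5p: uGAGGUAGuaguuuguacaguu
hsa-let-7i-5p: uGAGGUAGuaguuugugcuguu
hsa-let-7f-5p: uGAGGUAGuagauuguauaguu
hsa-let-7b-5p: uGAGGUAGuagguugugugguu
hsa-let-7d-5p: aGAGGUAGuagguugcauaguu
hsa-miR-98-5p: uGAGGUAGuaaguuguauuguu

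Every member is 22 bases long with the seed GAGGUAG, and the members differ in the bases outside it. Counted from 1 at the 5′ end with let-7a-5p as the reference, let-7c-5p has A19G, let-7e-5p has U9G and let-7f-5p has G12A. A pair of changes sets off let-7b-5p (A17G and A19G), let-7g-5p (G12U and U18C), let-7d-5p (U1A and U16C) and miR-98-5p (G11A and A19U). The farthest from let-7a-5p is let-7i-5p, with G12U, A17G, U18C and A19U. Of the 36 pairs of members, 4 differ by 1 base, and these link let-7a, let-7b, let-7c, let-7e and let-7f into one chain. How reads shared by near-identical miRNAs were counted is not given in the sources used here, so levels of these 5 members are uncertain singly. Among 2370 mature names in the RefSeq table, 11 carry this seed. The other two, miR-4458 and miR-4500, were not among the rows used here.

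The members come from 12 hairpins on 8 chromosomes (GRCh38), and their neighbours differ. let-7a-5p alone is encoded by 3 hairpins, so its count adds up 3 loci. These are MIRLET7A1 (chr9:94175957-94176036, plus strand), MIRLET7A2 (chr11:122146522-122146593, minus strand) and MIRLET7A3 (chr22:46112749-46112822, plus strand). On chromosome 9, MIRLET7A1 is intronic to a long non-coding RNA gene that GENCODE release 29 calls AL158152.2. Introns of the same gene hold MIRLET7F1 (chr9:94176347-94176433) and MIRLET7D (chr9:94178834-94178920). MIRLET7A3 and MIRLET7B (chr22:46113686-46113768) overlap exons of MIRLET7BHG, 863 bases apart. On the X chromosome, MIR98 (chrX:53556223-53556341, minus strand) and MIRLET7F2 (chrX:53557192-53557274, minus strand) lie in an intron of HUWE1, which encodes a ubiquitin ligase.

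The remaining members are single or sit beside miR-99, miR-100 and miR-125 hairpins. MIRLET7C (chr21:16539828-16539911, plus strand) lies in an intron of MIR99AHG, 658 bases from MIR99A. MIRLET7E (chr19:51692786-51692864, plus strand) lies in an intron of SPACA6, between MIR99B and MIR125A. MIRLET7A2 lies in an intron of MIR100HG, 5635 bases from MIR100. MIRLET7G (chr3:52268278-52268361, minus strand) is in an intron of WDR82, and MIRLET7I (chr12:62603686-62603769, plus strand) is intronic to AC048341.1, a long non-coding RNA gene. On the opposite strand, MIRLET7E and MIRLET7I overlap exons of SPACA6P-AS and LINC01465.

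The hairpins also differ in the GGAG element. The search covered the transcript strand from the base after the 5p strand to the end of the hairpin, with the letters GGAG and no mismatch. It found a match in 9 of the 12 let-7 and miR-98 hairpins, 75.0%, against 18.9% of the 798 hairpins in the RefSeq table that have a 5p strand. The 3 without a match were MIRLET7A3, MIRLET7B and MIR98. The hairpins of the most abundant member, let-7c, and of let-7b are shown 5′ to 3′ with GGAG in capitals, since one holds the letters and the other does not.
MIRLET7C: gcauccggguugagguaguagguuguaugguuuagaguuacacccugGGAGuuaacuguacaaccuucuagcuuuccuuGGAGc
MIRLET7B: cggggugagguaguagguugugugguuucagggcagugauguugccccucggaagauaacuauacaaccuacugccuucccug
MIRLET7C holds 2 matches, the second close to the 3′ end of the hairpin. A match is a property of the letters, and binding was not measured here. The search did not check whether a match is the element that LIN28A and LIN28B bind.

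The libraries held 547875 and 753104 miRNA counts with entinostat and 938559 and 561485 with DMSO. Levels are CPM, the count per 1e+06 counts of its library, scaled with TMM factors (trimmed mean of M-values). Where no count was seen, 3 counts were taken as the limit, which is 5.48 and 3.98 CPM with entinostat and 3.20 and 5.34 CPM with DMSO before that scaling. Markers of blood, liver and muscle, 11 miRNAs in all, served as a check for other cell types. Of these, 7 were not among the rows used here, and the summed counts of the other 4 were 199 and 250 CPM with entinostat and 245 and 223 CPM with DMSO. Nearly all of that was miR-486-5p, and liver miR-122-5p had 0 counts in both entinostat libraries and 5 and 0 with DMSO. No defining miRNA of this cell line was fixed, so the label was not checked further.

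Taken as a sum, the let-7 family held about the same place in the miRNA pool with and without entinostat. The family had 11278 and 14451 counts with entinostat, against 17206 and 11241 with DMSO. The share of all counts was 2.06% (exact Clopper-Pearson 95% interval 2.02 to 2.10%) in entinostat replicate 1 and 1.92% (1.89 to 1.95%) in entinostat replicate 2. In the DMSO libraries it was 1.83% (1.81 to 1.86%) and 2.002% (1.97 to 2.04%). Intervals of shares cover counting error only. Adapter ligation and PCR can favour some sequences, so these shares describe reads and not molecules.

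The summed level was 20729 and 19022 CPM in the entinostat libraries, against 18388 and 19994 CPM in the DMSO libraries. The groups overlapped, since DMSO replicate 2 lay above entinostat replicate 2. Means were 19875 ± 1207 CPM with entinostat and 19191 ± 1136 CPM with DMSO (SD, n = 2 each), a log2 ratio of 0.05. Within a treatment the higher library exceeded the lower by a ratio of 1.09 in both groups, against 1.04 between the treatment means. Means of 2 libraries vary less than single libraries, so these ratios are not compared on an even footing. Without DMSO replicate 1 the log2 ratio was -0.02 and without entinostat replicate 1 it was -0.02, so its sign rested on single libraries. No test was run on the sum of chosen members.

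A sum over the 5 members linked by 1-base differences does not depend on how reads were split among these 5. Reads dropped, counted more than once or shared with other members would still affect it. This sum held 87.4% of the family counts. It was 18075 and 16863 CPM with entinostat, against 16037 and 17275 CPM with DMSO, and the groups overlapped. The log2 ratio was 0.07, and 0.00380 without DMSO replicate 1 or 0.00652 without entinostat replicate 1.

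let-7c-5p and let-7a-5p made up most of the family in every library. let-7c-5p, a member made from MIR99AHG, took 42.8% and 45.6% of the family counts with entinostat and 43.6% and 42.5% with DMSO. let-7a-5p took 26.2% and 24.7% with entinostat, against 26.2% and 26.2% with DMSO. let-7e-5p, from SPACA6, came next at 11.5 ± 0.514% with entinostat and 10.9 ± 0.245% with DMSO (SD, n = 2 each). let-7g-5p, from WDR82, took 7.67 ± 0.854% with entinostat and 8.38 ± 0.363% with DMSO.

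Each of let-7i-5p, let-7f-5p and let-7b-5p held between 2.94% and 4.50% of the family in every library. let-7d-5p held 0.341 ± 0.0815% with entinostat and 0.380 ± 0.0283% with DMSO, and miR-98-5p held 0.0774 ± 0.0410% and 0.0776 ± 0.0217%. The 5 most abundant members, from let-7c-5p to let-7i-5p, kept one order in all 4 libraries. let-7f-5p ranked above let-7b-5p in entinostat replicate 1 and DMSO replicate 2 and below it in the other libraries. The levels of let-7f-5p overlapped those of its neighbours let-7i-5p and let-7b-5p across libraries, and no other neighbours in the order overlapped.

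**Figure D1:**
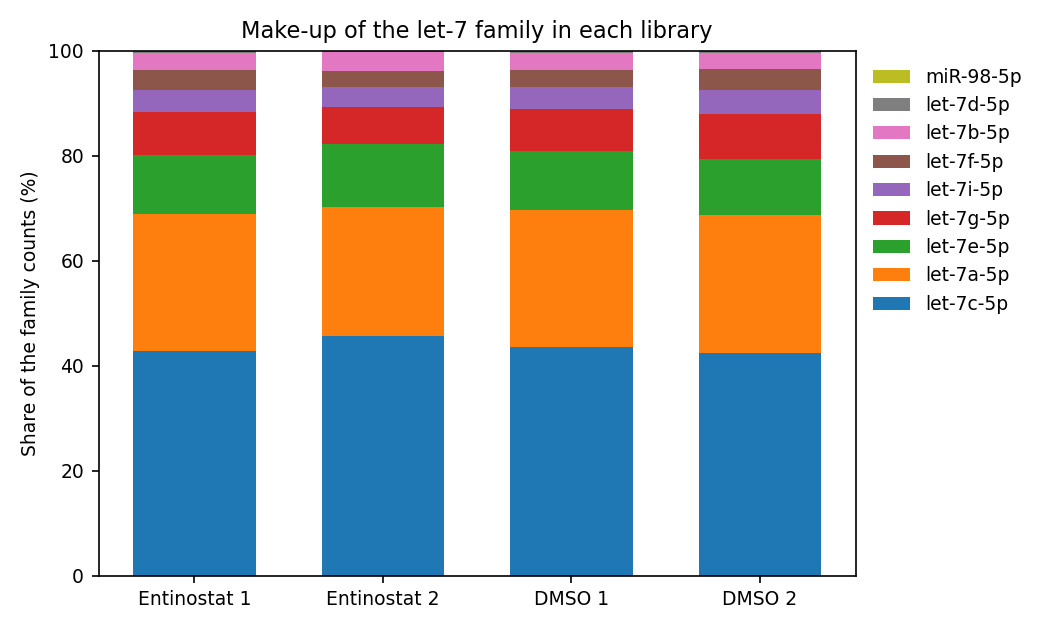
Share of the let-7 family counts (y axis, %) taken by each of the 9 members in each library (x axis), stacked from the most abundant at the bottom. let-7c-5p takes 42.5 to 45.6% in every library, and miR-98-5p and let-7d-5p are barely visible.

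No guide strand differed between the treatments past the threshold. In the edgeR quasi-likelihood test, 0 of the 9 members had a Benjamini-Hochberg adjusted p under 0.05, the lowest being 0.640, against 0% of all 401 tested miRNAs. At an unadjusted p under 0.05 it gave 0 of the 9, against 6.73% of all tested miRNAs, and DESeq2, limma-voom and the edgeR likelihood ratio test each gave 0 of the 9 as well, while over all miRNAs they gave 11 of 826, 31 of 401 and 34 of 401. Fold changes are entinostat over DMSO. Of the members, 5 lay above 0 and 4 below, with log2 fold changes between -0.11 and 0.15. The median was 0.00034, against 0.00466 over all tested miRNAs. With upper quartile scaling, which moved that overall median to 0.12, all 9 lay above 0 with a median of 0.10.

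**Figure D2:**
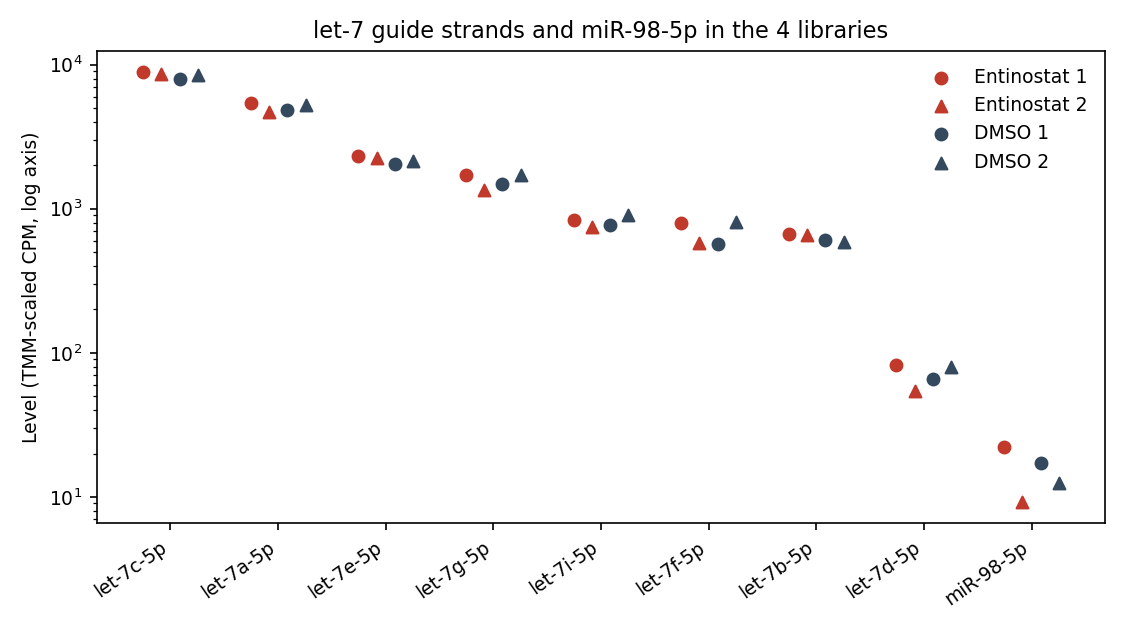
Level of each guide strand (y axis, TMM-scaled CPM, log axis) in the 4 libraries, entinostat in red and DMSO in dark blue, circles for replicate 1 and triangles for replicate 2. Levels span from 9.21 CPM for miR-98-5p to 8863 CPM for let-7c-5p. Entinostat replicate 1 and DMSO replicate 2, which have the higher family sums, are the higher of their pair for 7 of the 9 members. The share over all tested miRNAs was not computed.

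In 3 members, let-7c-5p, let-7e-5p and let-7b-5p, both entinostat libraries lay above both DMSO libraries. That is 3 of 9, while 20.7% of all tested miRNAs had this order and 40.6% did not overlap in either direction.
let-7c-5p, the most abundant member, had 8863 and 8675 CPM with entinostat, against 8015 and 8493 CPM with DMSO. The lower entinostat library lay close above the higher DMSO library, and the fitted fold was 1.06 (log2 fold change 0.09, SE 0.08, edgeR adjusted p = 0.741).
let-7e-5p, which differs from let-7a-5p next to the seed, had 2312 and 2260.1 CPM with entinostat, against 2038 and 2147 CPM with DMSO. Its fold was 1.09 (log2 fold change 0.13, SE 0.09, edgeR adjusted p = 0.640). Without DMSO replicate 1 the log2 fold changes were lower, 0.03 for let-7c-5p and 0.08 for let-7e-5p.
let-7b-5p, from a hairpin without GGAG, had 664 and 660 CPM with entinostat, against 605 and 587 CPM with DMSO. The replicates lay close together, and the fold was 1.11 (log2 fold change 0.15, 95% interval -0.09 to 0.39, edgeR adjusted p = 0.640).

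In the other 6 members the treatments overlapped. let-7a-5p, the member with 3 loci, had 5435 and 4695 CPM with entinostat, against 4810.3 and 5236 CPM with DMSO. The highest and the lowest of these values were both entinostat libraries, and the log2 fold change was 0.012 (95% interval -0.21 to 0.24). Without DMSO replicate 1 it was -0.06, and without entinostat replicate 1 it was -0.11.

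let-7g-5p had 1715 and 1344 CPM with entinostat, against 1494 and 1727 CPM with DMSO, a log2 fold change of -0.08 (95% interval -0.38 to 0.23). Without entinostat replicate 1 its log2 fold change was -0.27 with an unadjusted p of 0.0283 (edgeR adjusted p = 0.315), and without entinostat replicate 2 it was 0.09. Its level in entinostat replicate 2 was the lowest of the 4.
let-7i-5p had 834 and 752 CPM with entinostat, against 774 and 900.0 CPM with DMSO, a log2 fold change of -0.07 (95% interval -0.35 to 0.20). Here both extremes were at replicate 2, low with entinostat and high with DMSO.

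let-7f-5p showed the widest spread among the abundant members. It had 801 and 574 CPM with entinostat, against 569 and 811 CPM with DMSO. Each treatment thus had 1 high and 1 low library at nearly matching levels, and the fitted log2 fold change was 0.00034 (SE 0.20, edgeR adjusted p = 0.999). let-7f-5p differs from let-7a-5p by 1 base and is encoded on chromosomes 9 and X.

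The rare members were limited by counting. let-7d-5p, the only member that starts with A, had 45 and 41 counts with entinostat, against 62 and 45 with DMSO. In levels that was 82.7 and 54.0 CPM with entinostat, against 66.3 and 80.04 CPM with DMSO, a log2 fold change of -0.11 (95% interval -0.72 to 0.50). The X-linked miR-98-5p had 12 and 7 counts with entinostat, against 16 and 7 with DMSO. Exact Poisson 95% intervals, which cover counting error only, ran from 6.20 to 20.96 for the 12 counts and from 2.81 to 14.4 for the 7. Its fold had a 95% interval of 0.395 to 2.39, so a 2-fold difference in either direction was not excluded.

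**Figure D3:**
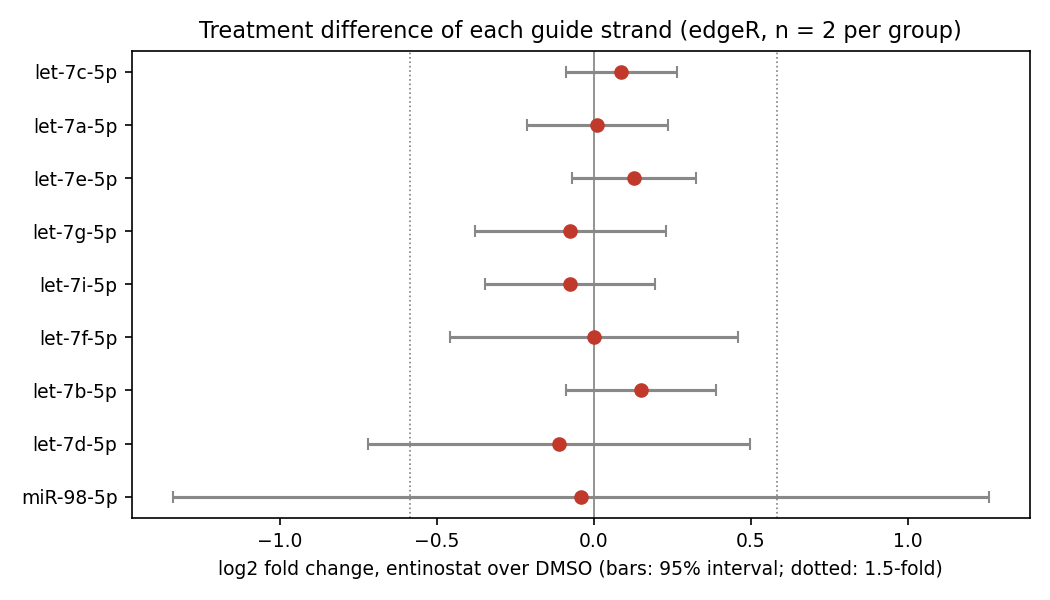
Log2 fold change of each guide strand, entinostat over DMSO (x axis), from the edgeR fit, with bars for the 95% interval and dotted lines at a 1.5-fold difference either way. All 9 intervals include 0, and those of let-7f-5p, let-7d-5p and miR-98-5p are the widest.

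The intervals show how far the members could differ between these libraries under the TMM-scaled edgeR fit. For 6 of the 9 members, the 95% interval of the fold lay between 0.768 and 1.31. Counting the interval of let-7f-5p, 7 of the 9 lay inside a 1.5-fold difference in either direction, and 51.6% of all tested miRNAs did so. The 2 others were let-7d-5p and miR-98-5p. These intervals hold for each member singly, and with no spiked-in RNA they measure each member against the rest of its library. They leave out the choice of scaling, and differences between cultures if the replicates are technical.

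For most members the libraries of 1 treatment differed from each other by more than the treatments did. In 6 of the 9 members the fold between treatments was nearer 1 than both ratios within a treatment, and in the 3 members without overlap it was farther from 1 than both. A ratio of single libraries varies more than a fold fitted to 2 libraries per treatment, so the comparison is not an even one. The share over all tested miRNAs was not computed. For let-7f-5p, entinostat replicate 1 exceeded replicate 2 by a ratio of 1.40 and DMSO replicate 2 exceeded replicate 1 by 1.43. For let-7g-5p these ratios were 1.28 and 1.16, and for let-7a-5p they were 1.16 and 1.09. For let-7c-5p they were only 1.02 and 1.06, and for let-7b-5p 1.01 and 0.970.

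Both ratios were above 1 in 7 of the 9 members, all except let-7b-5p and miR-98-5p. Each ratio has the library with the higher family sum on top, so values above 1 are partly built in. The share over all tested miRNAs was not computed, and members that differ by 1 base may share reads. Entinostat replicate 1 and DMSO replicate 2, the higher libraries, also had the lowest totals, at 547875 and 561485 counts. The part of depth in these ratios was not tested.

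**Figure D4:**
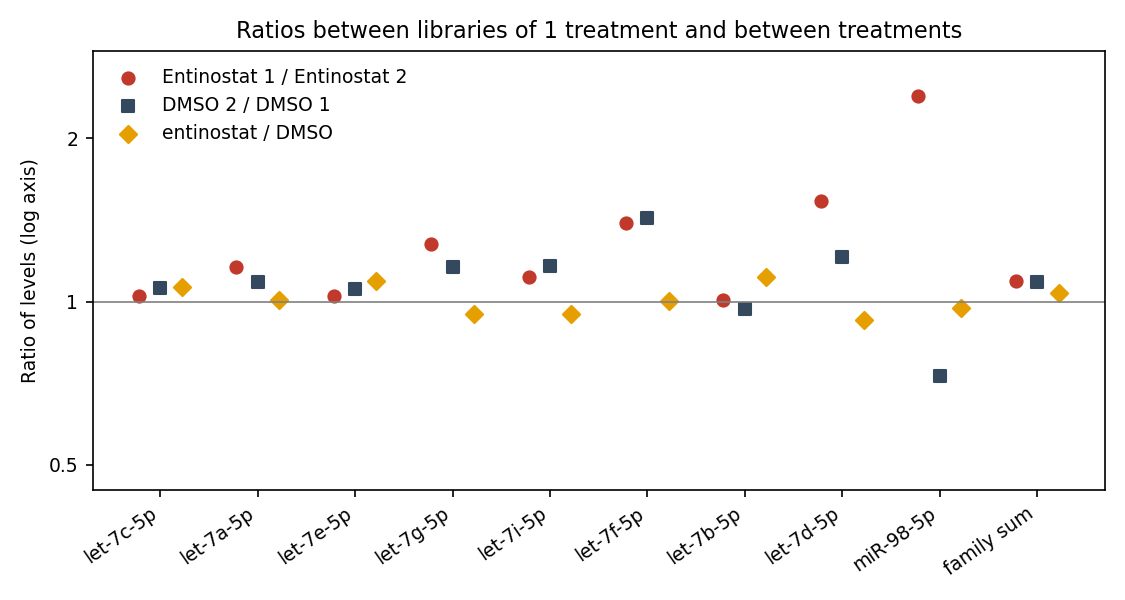
Ratios of levels (y axis, log axis) for each member and for the family sum: entinostat replicate 1 over replicate 2 (red circles), DMSO replicate 2 over replicate 1 (dark blue squares) and entinostat over DMSO (yellow diamonds). For let-7f-5p the library ratios are 1.40 and 1.43 while the treatment fold is 1.00.

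The guide strands were set beside the miRNAs made from the same primary transcripts. Of the 5 cluster partners tested (miR-99a-5p, miR-100-5p, miR-99b-5p, miR-125a-5p and miR-125b-5p), the edgeR test called 0, 1 had an unadjusted p under 0.05 (6.73% of all tested miRNAs did), and 2 lay above 0, or 3 with upper quartile scaling. miR-99a-5p, the neighbour of let-7c, had 274608 and 259558 CPM with entinostat, against 253242 and 264137 CPM with DMSO. There were 31.0 and 29.9 counts of miR-99a-5p per count of let-7c-5p with entinostat, against 31.6 and 31.1 with DMSO. Both entinostat values lay below both DMSO values, within a range of 29.9 to 31.6. It is a ratio of reads, not of molecules.

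In the chromosome 19 cluster, miR-125a-5p, a partner of let-7e-5p, had 13856 and 13062 CPM with entinostat, against 16651 and 14946 CPM with DMSO (log2 fold change -0.23, 95% interval -0.42 to -0.04, edgeR adjusted p = 0.595). There were 5.99 and 5.78 counts of miR-125a-5p per count of let-7e-5p with entinostat, against 8.17 and 6.96 with DMSO. miR-99b-5p, the other partner of let-7e-5p, had 43211 and 48729 CPM with entinostat, against 58245 and 48583 CPM with DMSO (log2 fold change -0.22, 95% interval -0.45 to 0.01, edgeR adjusted p = 0.595). Its groups overlapped, since entinostat replicate 2 lay just above DMSO replicate 2, and without DMSO replicate 1 the log2 fold change was -0.09 and without DMSO replicate 2 it was -0.37. For miR-99b-5p the ratio to let-7e-5p was 18.7 and 21.6 with entinostat, against 28.6 and 22.6 with DMSO. Both ratios, like that of miR-99a-5p to let-7c-5p, were lower in each entinostat library than in each DMSO library. These are not separate observations, since both ratios to let-7e-5p share their denominator. let-7c-5p and let-7e-5p also lay higher in each entinostat library than in each DMSO library. The share of other miRNA pairs with such an order was not computed. For miR-100-5p, the partner of MIRLET7A2, the ratio to let-7a-5p was 2.29 and 3.06 with entinostat, against 2.74 and 2.39 with DMSO, and the groups overlapped.

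Both arms were tested for 5 members, let-7a to let-7e, and in these the guide strand far outnumbered the passenger strand except in let-7d. The 5p share is the 5p count out of both arms matched by name, and the p-values come from a two-sided exact permutation test of the 5 arm pairs. This comparison of shares was not among the planned ones. The let-7e pair had a 5p share of 96.3% (exact 95% interval 95.1 to 97.2%) and 95.9% (94.8 to 96.7%) with entinostat. With DMSO it was 93.7% (92.5 to 94.7%) and 93.5% (92.0 to 94.8%). For let-7a it was 99.1% and 99.0% with entinostat, against 99.0% and 98.4% with DMSO. Its difference of 0.370 points was 0.666 points without DMSO replicate 1 and 0.0734 points without DMSO replicate 2. The let-7a-5p count adds up 3 hairpins, but the match by name leaves out let-7a-2-3p. That untested row had 0 counts in both entinostat libraries and 3 and 0 with DMSO. For let-7c the 5p share was 97.7% and 98.3% with entinostat, against 97.4% and 97.4% with DMSO. For let-7b it was 100% and 98.0% with entinostat, against 96.8% and 94.0% with DMSO, and let-7b-3p had 0 counts in entinostat replicate 1. In let-7d the arms were nearly even, with a 5p share of 61.6% and 58.6% with entinostat, against 46.6% and 61.6% with DMSO.

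Both entinostat libraries had a higher 5p share than both DMSO libraries in let-7a, let-7b, let-7c and let-7e, 4 of 5 pairs, while 18.5% of 92 arm pairs had this order. For each of these 4 the exact permutation p was 0.333, the smallest that 2 libraries against 2 allow, and 0.417 after Benjamini-Hochberg adjustment over the 5 pairs. The passenger strand let-7e-3p had 90.1 and 97.4 CPM with entinostat, against 138 and 149 CPM with DMSO (log2 fold change -0.60, SE 0.17, edgeR adjusted p = 0.595). All 5 passenger strands tested had log2 fold changes below 0 in the edgeR fit, as did 193 of all 401 tested miRNAs. They stayed below 0 in each alternative, but the share of all tested miRNAs that keep one sign throughout was not computed. In 3 of the 5, both entinostat libraries lay below both DMSO libraries, as in 80 of the 401, which largely sets the sign. Passenger counts also enter the 5p shares above, so the 2 results are not separate observations. The edgeR test called 0 of the 5 passenger strands, with 2 at an unadjusted p under 0.05, against 6.73% of all tested miRNAs. Whether the arms of a hairpin differ in their response was not tested in the count model.

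Some miRNAs outside the family followed its sum across the libraries more closely than others. Likeness was the root mean square difference of centred log2 levels over the 4 libraries, among 229 tested miRNAs of 100 CPM or more. The closest was miR-148a-3p at 0.00735, with 1652 and 1515 CPM with entinostat, against 1447 and 1587 CPM with DMSO. Next were miR-99a-5p at 0.0261 and miR-3180 at 0.0290. As with the family sum, entinostat replicate 1 was the highest library for all 3, which the choice by likeness largely sets. With 4 libraries the likeness is a description of these samples.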

How the data were processed

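Libraries of H661 small RNA were made from total RNA taken with TRIzol, with New England Biolabs reagents, per the labels' protocols. bcl2fastq 2.18 was used, per the submitters' processing notes. Not given in the sources used here are the aligner, counter, miRNA annotation and genome build. The authors deposited whole-number read counts for 826 mature miRNAs in 4 libraries, with 547875 to 938559 counts each. The authors' deposited CPM equal the count over the column total, times 1e+06, within 4.9e-05 CPM.

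Counts were TMM-scaled and tested with the edgeR 4.0.16 quasi-likelihood test under R 4.3.3, on treatment alone. filterByExpr (minimum count 10, minimum total 15) kept 401 rows, over which p-values were adjusted. The biological coefficient of variation was 8.05%. Intervals of fold changes come from the fitted standard error. The test was checked on simulated data. The members, partner lists and tests were chosen with earlier results of these data known. Named beyond the members were cluster partners, 3p arms, rows of the same seed and the 3 miRNAs most like the family sum. Sequences are from RefSeq (GRCh38.p14), and host genes are from GENCODE release 29, in which all hairpins given had the same spans. Alternatives covered scaling, filter, tool (DESeq2 1.42.0, limma 3.58.1), a replicate block, left-out libraries and log2 of the deposited CPM plus 1 or 0.5. Python 3.11.15 with SciPy 1.17.1 did the rest.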

Additional observations from a re-analysis of the deposited data

How the results depend on the processing

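Each alternative tried called 0 of the 9 guide strands and 0 of the partners. Over all miRNAs tested, the likelihood ratio test called 4 of 401 and the fit without entinostat replicate 1 called 5 of 446, and the others called 0. The family sum had a log2 ratio of 0.16 with upper quartile factors, against 0.05, and -0.02 to 0.11 with 1 library left out. Its other alternatives moved it by less than the spread between replicates. Of 144 recomputed fold changes of members, 23 changed sign, and of 192 of other named miRNAs, 11 did, as listed here in log2. The cause was not tested. With upper quartile factors let-7d-5p was at 0.0070, let-7g-5p at 0.032, let-7i-5p at 0.035, miR-98-5p at 0.083 and miR-125b-5p at 0.044. For let-7f-5p the values were -0.0060 with size factors of the DESeq2 kind, -0.00050 with no filter, -0.012 with a mean of 10 CPM or more, -0.011 with DESeq2, and -0.0027 with the likelihood ratio test. let-7a-5p was at -0.0013 with a mean of 10 CPM or more and miR-98-5p at 0.045 with DESeq2. miR-3180 was at -0.0012, -0.0086 and -0.0028 with size factors of the DESeq2 kind, a mean of 10 CPM or more and DESeq2.

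With 1 library left out, members ranged from -0.11 to 0.11 for let-7a-5p, -0.43 to 0.19 for let-7d-5p, -0.26 to 0.24 for let-7f-5p, -0.27 to 0.091 for let-7g-5p, -0.20 to 0.0051 for let-7i-5p and -0.72 to 0.53 for miR-98-5p. The 3 members whose groups did not overlap ranged from 0.034 to 0.10 for let-7c-5p, 0.078 to 0.14 for let-7e-5p and 0.10 to 0.16 for let-7b-5p. Their sign was largely set by that order of libraries, so it is no separate support. The ranges were -0.37 to -0.092 for miR-99b-5p, -0.0068 to 0.081 for miR-99a-5p, -0.052 to 0.15 for miR-100-5p, -0.016 to 0.12 for miR-148a-3p and -0.072 to 0.063 for miR-3180. The let-7d difference in 5p share ranged from -1.54 to 13.5 points. A lone library is there assumed to vary like the other group.

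With the replicate number as a block, 0 guide strands were called, the log2 ratio of the family sum was 0.05 and miR-98-5p was at 0.061. Deviations of same-numbered libraries had a correlation of -0.11 over 401 miRNAs. With the numbers crossed as a block, an alternative chosen after seeing the data, 0 were called and let-7f-5p was at -0.0018. The 5p shares and the sum of the 5 members linked by 1-base differences were not planned either. Depth limits miR-98-5p and let-7d-5p most.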
